A study of Mus musculus with 48 samples.

Results

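Cerebral cortex of mice carrying 1 mutant Msh3 allele (Msh3+/-) was compared with cortex of wild-type mice. The 16 libraries were taken by their titles from the 48 of the series: 8 Msh3+/- and 8 wild type, neither group with Q140. Q140 is a Huntington's disease allele, an expanded CAG repeat knocked into the mouse huntingtin gene Htt. All 16 mice were recorded as C57BL/6, 12 months old, with 4 females and 4 males in each group. The labels list no treatment and give each library its own mouse name. The other 32 libraries, of 8 mice each, were Msh3-/-, Q140, Q140 with Msh3+/- and Q140 with Msh3-/-, of the same age and background. All 48 entered the statistical model so that the spread between mice was estimated from 6 groups, and 19547 of the 48795 genes in the table passed the filter on low counts.

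MSH3 is a subunit of MutSβ, the mismatch repair complex that binds small loops of unpaired DNA. Loops of this kind form at CAG repeats, and MutSβ activity at them drives the somatic lengthening of the repeat in Huntington's disease models. MSH6 belongs to MutSα, which binds single mismatches. The comparison without Q140 asks what loss of 1 Msh3 allele does to the cortical transcriptome where no expanded repeat is present. The labels do not say which part of Msh3 was altered or whether the line was backcrossed to the wild-type colony.

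Between 41590144 and 58615509 counts were assigned to genes in the Msh3+/- libraries and between 42812796 and 68300525 in the wild-type libraries. One protocol field names striatum at another age, whereas the tissue, source and title fields name cortex and the age field 12 months. The cortical excitatory neuron gene Slc17a7 lay at 1171 to 1451 CPM (a gene count scaled by library size, with TMM factors) over the 16 libraries. The dopamine receptor gene Drd2 of striatal projection neurons averaged 0.674 CPM in wild type. However, the 19 tested genes of the striatal projection neuron list summed to 1325 to 1435 CPM in wild type and 1311 to 1467 CPM in Msh3+/-. One Msh3+/- male, replicate M2, stood apart in choroid plexus genes: its 13 tested members summed to 1168 CPM, against 231 to 257 CPM in the other 7 Msh3+/- libraries and 228 to 281 CPM in wild type. By the well addresses in the labels the genotypes were unevenly placed: plate column 3 held 4 wild-type and 0 Msh3+/- libraries, and column 4 held 3 Msh3+/- and 0 wild-type libraries.

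Few genes differed. At an adjusted p under 0.05, 6 genes were called, 0.0307% of those tested. Msh3 itself was higher (1 gene, 0.00512%), and 5 genes were lower (0.0256%): Rasgrf2 and Cmya5, which neighbour Msh3 on chromosome 13, and the unclassified gene models Gm38340, E230020A03Rik and Gm37827, which lie side by side on chromosome 7. An unadjusted p under 0.05 was reached by 969 genes, 4.96% of those tested, of which 501 had a higher and 468 a lower level. The CPM values of both groups did not overlap in 3 genes, or 0.0153%: Msh3, Gm37827 and Gm10320, the last with an adjusted p of 0.963. Tested p-values come from edgeR's quasi-likelihood test with Benjamini-Hochberg adjustment over all 19547 genes. They set each difference against a spread between mice that was estimated from all 48 libraries. With the 16 libraries fitted alone, 2 calls were made, Msh3 (adjusted p = 3.15e-17) and Rasgrf2 (adjusted p = 0.0174).

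**Figure D1:**
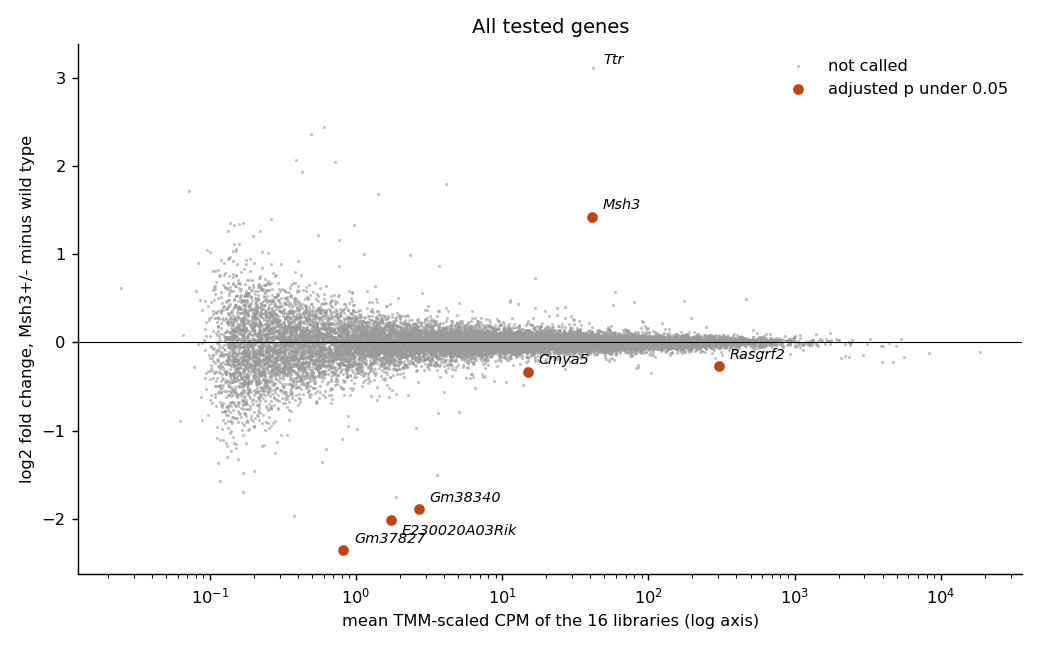
Each point is a tested gene, with its mean TMM-scaled CPM over the 16 libraries on a log axis against its log2 fold change, Msh3+/- minus wild type. The 6 called genes are filled in colour: Msh3 lies above the cloud at 1.43, and 5 lie below it. Ttr, a choroid plexus gene, is named at the top although it was not called.

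Msh3 was counted at a higher level in the mutants. Wild-type libraries held 20.5 to 23.5 CPM with a median of 22.7, and Msh3+/- libraries held 55.3 to 64.7 CPM with a median of 60.6. All 8 Msh3+/- libraries lay above the highest wild-type library. Means were 22.4 ± 1.16 and 60.1 ± 3.06 CPM (SD, n = 8 each), a log2 fold change of 1.43 with a standard error (SE) of 0.045 and an adjusted p of 2.44e-31, or 2.69 times the wild-type level. The Msh3-/- libraries, set against the same wild-type mice, held 84.2 to 108 CPM, with a log2 fold change of 2.15 (SE 0.045). Counts were summed over the whole gene, so they do not distinguish functional transcript from transcript of an altered allele, and the check on the labels is that all libraries of each Msh3 genotype form a separate range.

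Msh3 lies on chromosome 13 (GRCm38, 13:92211872-92355003, minus strand). Htt, the gene that carries the repeat in Q140 mice, held 230 to 260 CPM in wild type and 245 to 272 CPM in Msh3+/- mice, with overlapping ranges. Its log2 fold change was 0.076 (SE 0.036, adjusted p = 0.963).

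**Figure D2:**
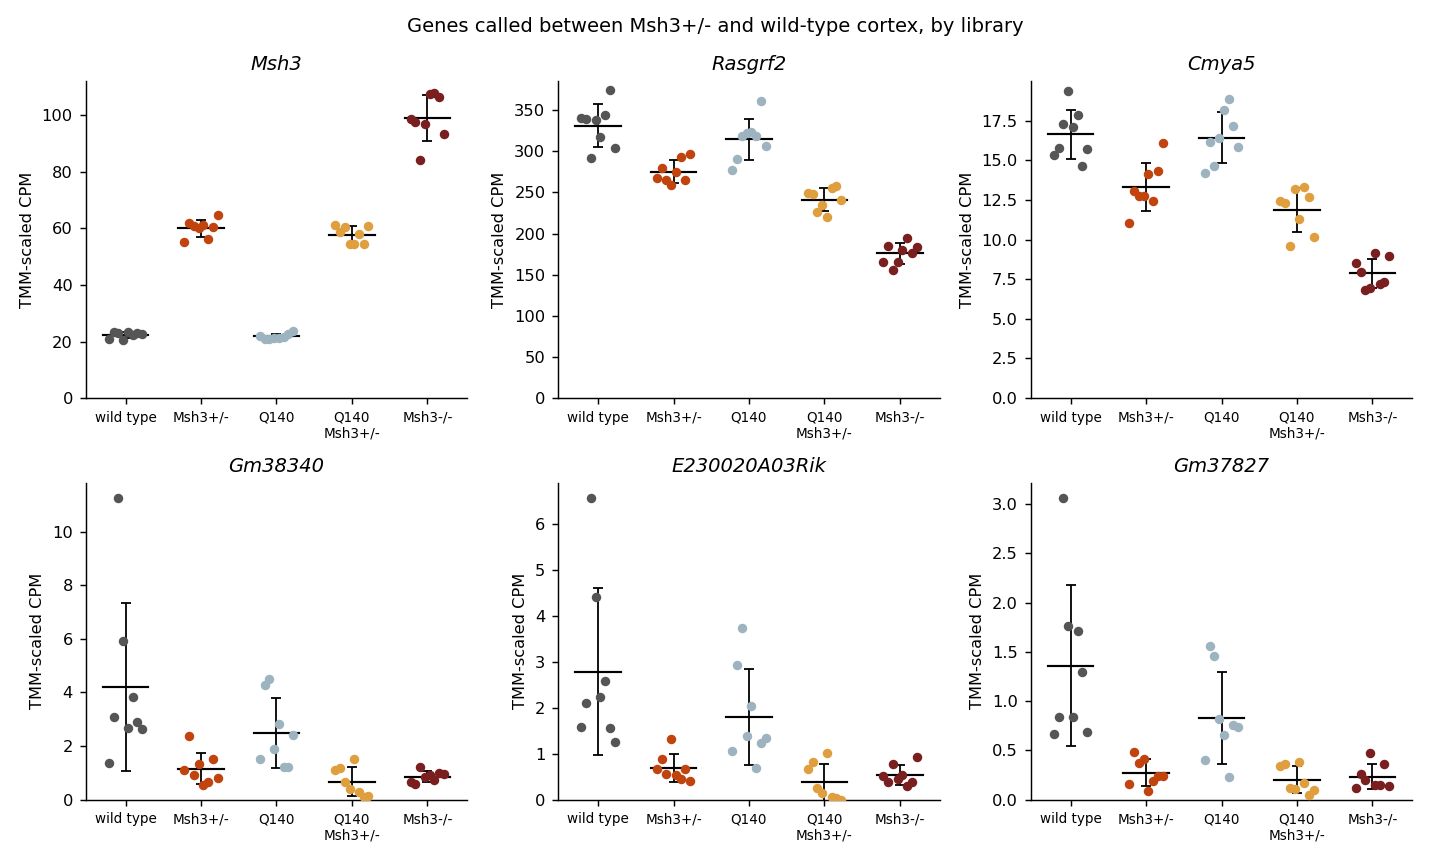
TMM-scaled CPM of the 6 called genes in every library (points) with the mean and SD of 8 libraries (bars), for wild type, Msh3+/-, Q140, Q140 with Msh3+/- and Msh3-/-. Msh3 forms a separate range in each Msh3 genotype, with and without Q140 overlapping, and Rasgrf2 and Cmya5 are lowest in Msh3-/-. The chromosome 7 models spread widely in wild type, with 1 library at 11.3 CPM for Gm38340.

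Other mismatch repair genes showed no called difference. Of 24 tested mismatch repair genes, Msh3 was called and 3 others had an unadjusted p under 0.05, all with a higher level: Exo1, Pms2 and Rpa2, each with an adjusted p of 0.963. The median log2 fold change of the 24 was 0.025, beside 0.0014 for all genes. On the FPKM scale, which divides by gene length and library size and so allows genes to be compared, wild-type cortex held 4.83 ± 0.35 Msh6 and 1.98 ± 0.11 Msh3 (SD, n = 8). In Msh3+/- cortex Msh3 reached 5.32 ± 0.31 FPKM, beside 4.71 ± 0.39 for Msh6.

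Msh6, the mismatch-binding subunit of MutSα, ranged from 17.7 to 22.9 CPM in wild type and from 18.2 to 22.02 CPM in Msh3+/-, with a log2 fold change of -0.043 and a 95% interval of -0.14 to 0.055. The ranges overlapped almost fully between the genotypes.

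The MutL proteins, among them PMS2, PMS1 and MLH3, act after mismatch binding, and the complex with MLH3 is a nuclease linked to repeat expansion. Log2 fold changes were 0.104 (SE 0.048) for Pms2, -0.025 (SE 0.102) for Pms1 and -0.026 (SE 0.045) for Mlh3. Exo1, the exonuclease that removes the mismatched strand, averaged 0.707 ± 0.227 CPM in wild type and 1.08 ± 0.41 CPM in Msh3+/-, and Rpa2, a subunit of the protein that coats single-stranded DNA, averaged 6.33 and 6.93 CPM. Pcna, the sliding clamp, and Lig1, the ligase that seals the repaired strand, had log2 fold changes of 0.031 and 0.030. The 95% interval of 21 of the 24 lay within 0.5 log2 units of 0.

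**Figure D3:**
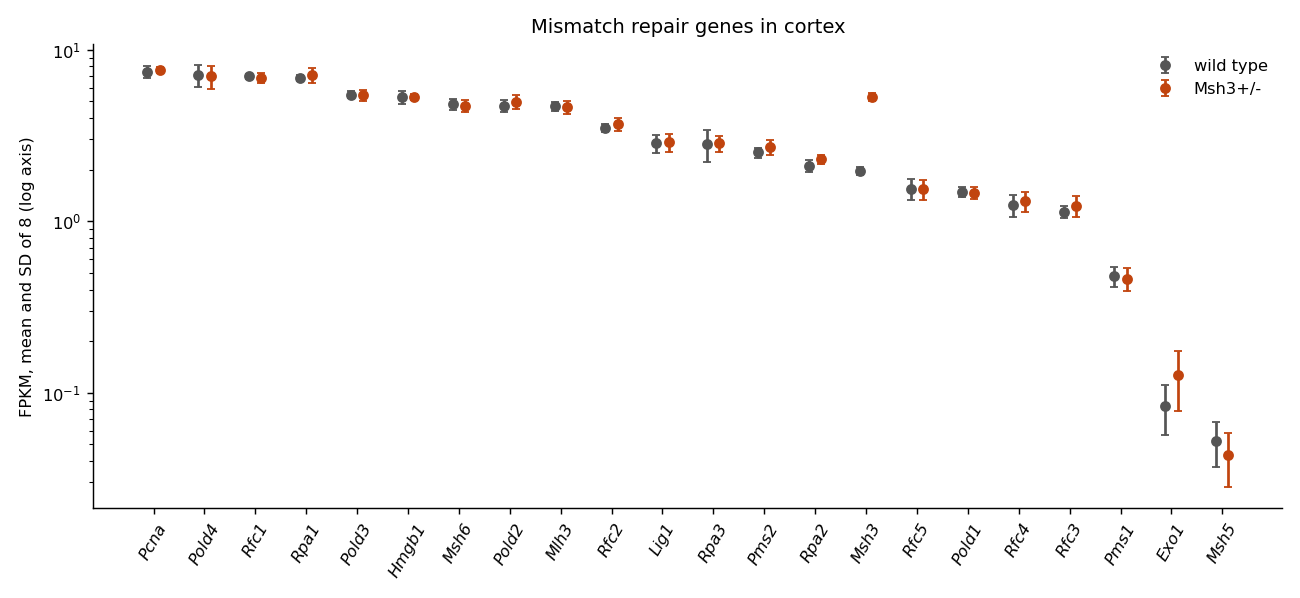
FPKM of 22 of the 24 tested mismatch repair genes on a log axis, as mean and SD of 8 libraries in wild type and Msh3+/-, ordered by the wild-type mean. Msh3 moves from 1.98 to 5.32 FPKM, and Exo1, among the lowest, moves from 0.083 to 0.127 FPKM.

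No other DNA repair or repeat-related gene on the lists was called. Among 22 modifiers of repeat expansion, Msh3 was the 1 call. Fan1, a nuclease that counters CAG expansion, averaged 9.72 and 10.8 CPM in wild type and Msh3+/- (log2 fold change 0.145, SE 0.067), and Ercc8, a transcription-coupled repair factor, averaged 10.6 and 11.8 CPM (0.142, SE 0.056). Neither was called (adjusted p = 0.963 for both). In base and nucleotide excision repair 0 of 32 genes were called and 2 had an unadjusted p under 0.05, Apex1 and Xrcc1, both with a higher level. In double-strand break repair 0 of 38 were called and 3 had an unadjusted p under 0.05, 2 higher and 1 lower. In the p53 response 0 of 30 were called, where 1 gene was higher (Bbc3) and 1 lower (Fas) at an unadjusted p under 0.05. The shares at an unadjusted p under 0.05 were 6.25%, 7.89% and 6.67% in these 3 lists, near the 4.96% of all tested genes. The median log2 fold changes of these 3 lists were 0.020, -0.0051 and 0.012.

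Rasgrf2 fell. It encodes an exchange factor that activates Ras in response to calcium and is a marker of upper-layer cortical neurons, and it lies 0.0802 Mb from Msh3 (13:91880400-92131656, minus strand). Wild-type libraries ranged from 292 to 375 CPM with a median of 339, and Msh3+/- libraries from 258 to 297 CPM with a median of 271. In 6 of 8 Msh3+/- libraries the level lay below the lowest wild-type library, so the ranges overlapped slightly. Means were 331 ± 26.1 and 275 ± 13.9 CPM (SD, n = 8), so Rasgrf2 fell by 16.9% (log2 fold change -0.27, SE 0.044, adjusted p = 0.00084). It remained called when any 1 of the 16 libraries was left out, with adjusted p between 0.00016 and 0.0052.

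Neither its paralogue nor other markers of its layer were called. Rasgrf1, the related exchange factor encoded on another chromosome, averaged 494 ± 18.5 CPM in wild type and 546 ± 108 CPM in Msh3+/- (adjusted p = 0.963). Of 35 Ras activators and MAPK pathway genes, Rasgrf2 was the 1 call. Of 20 upper-layer markers it was also the 1 call, and 16 had a log2 fold change above 0, with a list median of 0.071. Cux2, an upper-layer transcription factor gene, averaged 209 and 224 CPM (adjusted p = 0.963).

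Cmya5 also fell. It encodes myospryn, a large scaffold protein best known in muscle, and lies 0.686 Mb from Msh3 on the other side (13:93040713-93144724, minus strand). Wild-type libraries ranged from 14.7 to 19.4 CPM with a median of 16.4, and Msh3+/- libraries from 11.02 to 16.1 CPM with a median of 12.9. The level of 7 of 8 Msh3+/- libraries lay below the lowest wild-type library. Means were 16.6 ± 1.55 and 13.3 ± 1.52 CPM (SD, n = 8), and the log2 fold change was -0.33 (SE 0.068, adjusted p = 0.0432). The call stood close to the threshold: it was kept in 4 of the 16 fits that each left out 1 library, those without Msh3+/- M4 or wild-type F1, M3 or M4, and lost in the other 12, with adjusted p between 0.0093 and 0.246 over the 16.

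Msh3-/- mice, compared with the same wild-type libraries, held 156 to 194 CPM of Rasgrf2 and 6.83 to 9.17 CPM of Cmya5. Both ranges lay below those of the Msh3+/- mice. The log2 fold changes against wild type were -0.92 (SE 0.044) for Rasgrf2 and -1.08 (SE 0.073) for Cmya5.

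Other genes around Msh3 were read in windows of distance. Within 2 Mb, 29 genes other than Msh3 were tested, of which Rasgrf2 and Cmya5 were called. An unadjusted p under 0.05 was reached by 6 of the 29 (20.7%; 1 higher and 5 lower), by 6 of 36 genes from 2 to 5 Mb (16.7%; 1 higher and 5 lower), by 3 of 53 from 5 to 10 Mb (5.66%) and by 2 of 94 from 10 to 20 Mb (2.13%), beside 4.92% on other chromosomes. Neighbours of Msh3 were not uniformly lower: the single-stranded DNA binding protein gene Ssbp2 averaged 71.4 and 72.1 CPM, and Jmy, an actin nucleation factor gene, averaged 80.1 and 81.7 CPM. The share of genes was not tested as a set, and neighbouring genes are not independent of each other.

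Several of these neighbours had larger differences without passing the threshold. Fam169a, 4.71 Mb away, ranged from 76.5 to 83.5 CPM in wild type and from 66.6 to 78.7 CPM in Msh3+/-, where 6 of 8 libraries lay below the lowest wild-type value (log2 fold change -0.14, SE 0.033, adjusted p = 0.136). Vcan, which encodes the matrix proteoglycan versican and lies 2.47 Mb away on the other side, averaged 21.4 ± 0.92 and 18.3 ± 1.28 CPM (adjusted p = 0.170). Ankrd34b, 0.0709 Mb away, averaged 26.3 ± 2.50 and 23.1 ± 1.33 CPM (adjusted p = 0.383).

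The protease-activated receptor genes lay on both sides of 0. F2rl2 averaged 2.71 ± 0.59 CPM in wild type and 1.78 ± 0.55 CPM in Msh3+/- (adjusted p = 0.339). F2r, the thrombin receptor gene nearby, averaged 3.72 ± 0.60 and 4.78 ± 0.85 CPM (log2 fold change 0.36, SE 0.105, adjusted p = 0.635), with 7 of 8 Msh3+/- libraries above the highest wild-type value and M4 at 2.76 CPM.

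Genes of choline breakdown lie in the same interval. Dmgdh, the dimethylglycine dehydrogenase gene at 1.32 Mb, averaged 0.554 ± 0.124 CPM in wild type and 0.980 ± 0.260 CPM in Msh3+/- (log2 fold change 0.86, SE 0.227, adjusted p = 0.383), and Bhmt2, a methyltransferase gene, averaged 0.969 and 0.771 CPM (adjusted p = 0.963). AW495222, on the opposite strand within Dmgdh, averaged 5.08 ± 0.64 and 3.95 ± 0.72 CPM (adjusted p = 0.502). Whether counting used strand is not given in the sources used here, so reads of Dmgdh and AW495222 may not be separated.

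**Figure D4:**
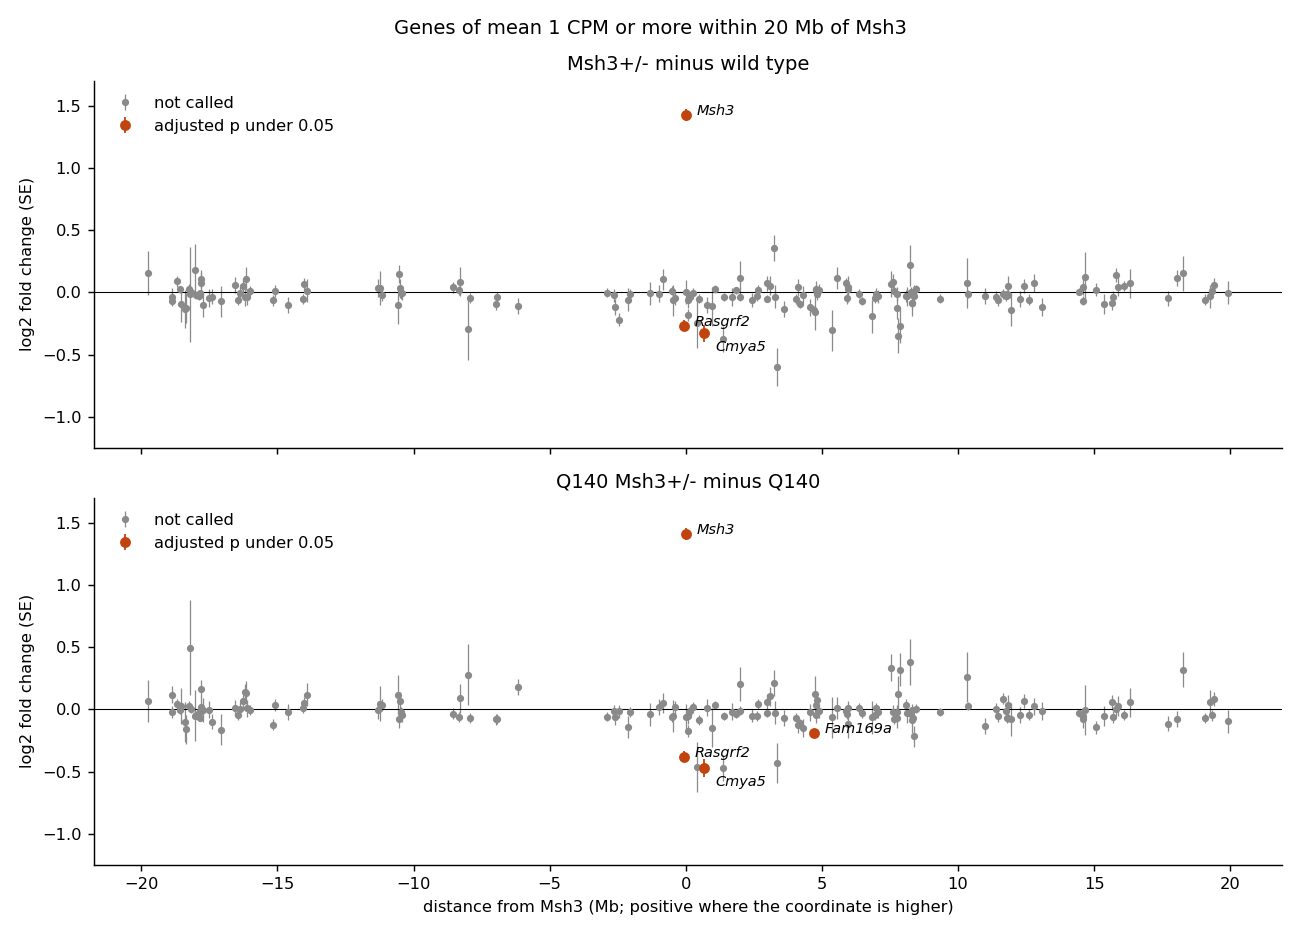
Log2 fold change with its SE for genes of mean 1 CPM or more within 20 Mb of Msh3, by distance in Mb, in Msh3+/- minus wild type (top) and in Q140 with Msh3+/- minus Q140 (bottom). Msh3 stands at 1.43 and 1.41. Rasgrf2 and Cmya5 are called in both panels and Fam169a in the lower one.

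The largest negative fold changes among the called genes came from chromosome 7. Gm38340 (7:36721846-36725853), E230020A03Rik (7:36727177-36729562) and Gm37827 (7:36733017-36734558) are models that GENCODE lists as awaiting experimental evidence. All lie on the plus strand inside the 70.3 kb intron (7:36698290-36768627) of Tshz3, a plus-strand gene for a zinc-finger transcription factor of cortical neurons. Reads from unspliced Tshz3 transcript would fall in the same models on the same strand.

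Gm38340 ranged from 1.38 to 11.3 CPM in wild type with a median of 2.99, and from 0.561 to 2.37 CPM in Msh3+/- with a median of 1.02. Of the 8 Msh3+/- libraries, 6 lay below the lowest wild-type value (log2 fold change -1.89, SE 0.339, adjusted p = 0.0063). E230020A03Rik ranged from 1.25 to 6.56 CPM in wild type with a median of 2.17 and from 0.401 to 1.33 CPM in Msh3+/- with a median of 0.620, and 7 of 8 Msh3+/- libraries were below the wild-type range. It fell by 2.02 on the log2 scale (SE 0.334, adjusted p = 0.0016).

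Gm37827 ranged from 0.666 to 3.06 CPM in wild type with a median of 1.07 and from 0.0850 to 0.487 CPM in Msh3+/- with a median of 0.238. The groups did not overlap (log2 fold change -2.35, SE 0.331, adjusted p = 4.85e-05). Another model in the intron, Gm37452, averaged 0.833 CPM in wild type and 0.329 CPM in Msh3+/- and was not called. Tshz3 itself ranged from 56.2 to 68.8 CPM in wild type and from 56.5 to 69.2 CPM in Msh3+/-, almost the same range. Wild-type replicate F3 was the highest library for Gm38340, E230020A03Rik, Gm37827 and Gm37452, and wild-type F4 was the next highest for each. With wild-type F3 and F4, whose mouse names come from another series of names, both left out, Gm37827 kept its call (adjusted p = 0.0036) and Gm38340 and E230020A03Rik did not (adjusted p = 0.536 and 0.261).

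Msh3-/- mice, set against the same wild-type libraries, held 0.575 to 1.21 CPM of Gm38340, 0.297 to 0.926 CPM of E230020A03Rik and 0.124 to 0.471 CPM of Gm37827. These ranges overlapped those of Msh3+/- mice for each of the 3 models. The models thus had no separate range in the homozygotes, whereas Rasgrf2 and Cmya5 did.

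The Q140 groups gave the same contrast in 16 other mice. Between Q140 with Msh3+/- and Q140, 6 genes were called (0.0307% of 19547): Msh3, Rasgrf2, Cmya5, E230020A03Rik, Gm37827 and Fam169a. Of the 6 genes called without Q140, 5 were among them, and Gm38340 had the same direction (log2 fold change -1.91, SE 0.430, adjusted p = 0.160). These 5 are 83.3% of each list. The Q140 contrast shares no library with the contrast without Q140, but both were fitted in one model with 1 estimate of spread. Fitted on its own 16 libraries, the Q140 contrast called 4 genes: Msh3, Rasgrf2, Cmya5 and Fam169a. The contrast without Q140, fitted on its own, called 2, Msh3 and Rasgrf2. No chromosome 7 model was called in either of these separate fits.

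In the Q140 pair Msh3 ranged from 20.8 to 23.7 CPM in Q140 and from 54.4 to 61.2 CPM in Q140 with Msh3+/- (log2 fold change 1.41, SE 0.045, adjusted p = 4.72e-31). Rasgrf2 ranged from 277 to 361 CPM and from 220 to 258 CPM (log2 fold change -0.38, SE 0.044, adjusted p = 1.03e-07), ranges that do not overlap. Cmya5 ranged from 14.2 to 18.8 CPM and from 9.60 to 13.3 CPM (log2 fold change -0.47, SE 0.070, adjusted p = 7.03e-05), also without overlap.

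For each chromosome 7 model the ranges of Q140 and Q140 with Msh3+/- overlapped. Gm38340 ranged from 1.22 to 4.49 CPM in Q140 and from 0.108 to 1.52 CPM in Q140 with Msh3+/-, E230020A03Rik from 0.691 to 3.72 CPM and from 0 to 1.01 CPM, and Gm37827 from 0.230 to 1.56 CPM and from 0.0433 to 0.384 CPM. Their Q140 means were 2.48, 1.80 and 0.829 CPM, beside 4.21, 2.78 and 1.36 CPM in wild type.

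Averaged over both backgrounds, 10 genes were called (0.0512% of 19547), 1 higher and 9 lower. This comparison contains the one without Q140 and is no independent evidence for it. Besides the 6 genes above they were Fam169a, Ankrd34b, F2rl2 and AW495222, all within 5 Mb of Msh3. Log2 fold changes in the averaged comparison were -0.17 for Fam169a (adjusted p = 9.51e-06), -0.18 for Ankrd34b (adjusted p = 0.0075), -0.52 for F2rl2 (adjusted p = 0.0419) and -0.42 for AW495222 (adjusted p = 0.00090). Thus 7 of the 10 were Msh3 or its chromosome 13 neighbours and 3 were the chromosome 7 models.

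The effect of the Msh3+/- genotype was also tested for dependence on Q140 and on sex. In the interaction with Q140, edgeR called 0 of 19547 genes (646 at an unadjusted p under 0.05, smallest adjusted p 0.999), and DESeq2 and limma-voom also called 0. In the interaction with sex within the 16 libraries, 0 of 18185 genes were called (890 at an unadjusted p under 0.05, smallest adjusted p 0.972), and DESeq2 and limma-voom called 0 as well. For Rasgrf2 the log2 fold change was -0.29 among the 4 females of each group and -0.24 among the males. For Msh3 it was 1.45 and 1.41, and for Cmya5 it was -0.46 and -0.20.

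Away from Msh3 and its neighbours, no gene but the chromosome 7 models was called, and the genes of next smallest p follow. Insm1, a zinc-finger transcription factor gene of neuronal progenitors, ranged from 3.58 to 5.74 CPM in wild type and from 4.41 to 6.98 CPM in Msh3+/- (log2 fold change 0.45, SE 0.106, adjusted p = 0.170). DESeq2 called it (adjusted p = 0.0308), as did edgeR without wild-type M1 (adjusted p = 0.0238), and in the Q140 pair its log2 fold change was 0.19 with an adjusted p of 0.786. Others with a higher level were Spry1, an inhibitor of receptor tyrosine kinase signalling, at 7.33 ± 0.70 and 8.77 ± 0.71 CPM (adjusted p = 0.502), the orphan receptor gene Gpr135 at 7.02 ± 0.71 and 8.40 ± 0.88 CPM (adjusted p = 0.339) and the oxysterol-binding protein gene Osbpl10 at 39.3 and 43.1 CPM (adjusted p = 0.383). Plagl2, a zinc-finger transcription factor gene, averaged 10.97 and 12.3 CPM, and Cdc20, an activator of the anaphase-promoting complex, averaged 0.753 and 1.11 CPM (adjusted p = 0.502 for both).

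On the lower side stood Nrp1, a receptor for semaphorins and vascular growth factor, which ranged from 14.8 to 18.4 CPM in wild type and from 10.3 to 14.9 CPM in Msh3+/- (log2 fold change -0.29, SE 0.070, adjusted p = 0.270). Only 2 of its 8 Msh3+/- libraries reached the wild-type range. Eif2s2, a subunit of translation initiation factor eIF2, averaged 29.8 ± 2.15 and 26.3 ± 0.96 CPM (adjusted p = 0.309). Med21, a Mediator subunit gene, averaged 15.8 and 14.0 CPM, Pip4k2a, a phosphoinositide kinase gene, 79.2 and 72.8 CPM, and Wdr44, a membrane trafficking gene, 19.3 and 17.6 CPM, with adjusted p of 0.963, 0.963 and 0.927. In the Q140 pair, log2 fold changes were -0.084 for Nrp1, -0.055 for Eif2s2, 0.0063 for Osbpl10 and 0.014 for Gpr135.

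Cell type and pathway lists held few calls. The 38 lists held 893 genes, of which 856 were tested, and 0 of them were called besides Msh3 and Rasgrf2. In bulk tissue, fewer cells of a type and less RNA per cell cannot be told apart. Members of a list are correlated within a library, so the counts below describe these libraries and were not tested as sets.

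Most myelin genes had a log2 fold change below 0. Of 24 oligodendrocyte and myelin genes, 21 did so, 7 of them at an unadjusted p under 0.05, and the median was -0.13. Among all 19547 tested genes, 9607 lay below 0, and 468 were lower at an unadjusted p under 0.05. Mbp, the myelin basic protein gene, ranged from 822 to 1168 CPM in wild type and from 709 to 1042 CPM in Msh3+/-, and Mog, a protein of the outer myelin surface, averaged 17.9 ± 2.91 and 15.6 ± 2.72 CPM (adjusted p = 0.963). The ranges overlapped broadly: the summed list held 2270 to 3202 CPM in wild type, highest in F3, and 2024 to 2941 CPM in Msh3+/-. Without wild-type F3 and F4 the list median was -0.065. In the Q140 pair it was -0.047, with 0 of the 24 genes at an unadjusted p under 0.05. Genes of oligodendrocyte precursors and newly formed oligodendrocytes had a median of 0.00068 over 21 genes.

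Most deep-layer projection neuron genes had a log2 fold change below 0, 13 of 20 in layer 5 and 16 of 20 in layer 6. In layer 5, 6 of 20 genes had an unadjusted p under 0.05, all lower, among them Bcl11b, the Ctip2 transcription factor gene, at 58.4 ± 4.48 and 51.2 ± 5.68 CPM, and Pcp4, a calmodulin regulator gene, at 92.2 ± 12.8 and 76.9 ± 6.19 CPM. In layer 6, 3 of 20 did so, all lower, beside 4.96% of all genes in either direction, among them Foxp2, a forkhead transcription factor gene, at 8.19 ± 1.23 and 6.34 ± 1.08 CPM. All had an adjusted p of 0.963. The list medians were -0.059 and -0.11, without wild-type F3 and F4 they were -0.097 and -0.17, and in the Q140 pair -0.060 and -0.030. In that pair, 1 of 20 layer 5 genes and 0 of 20 layer 6 genes had an unadjusted p under 0.05. The summed layer 5 list held 690 to 747 CPM in wild type and 628 to 710 CPM in Msh3+/-, with overlap.

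Astrocyte and microglia genes showed smaller medians. Of 20 astrocyte genes, 0 had an unadjusted p under 0.05 and the median was 0.0081. The glutamate transporter gene Slc1a2 ranged from 4149 to 4672 CPM in wild type and from 4086 to 4867 CPM in Msh3+/-. Of 25 microglia genes, 21 lay below 0 with a median of -0.028, whereas in the Q140 pair 22 lay above 0 with a median of 0.048. GABAergic interneuron genes had a median of 0.0092 over 28 genes, with Gad1, the enzyme of GABA synthesis, at 353 to 452 and at 345 to 460 CPM.

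Neuronal activity genes varied widely among libraries. Of 26 immediate early genes, 22 had a log2 fold change above 0 and 0 had an unadjusted p under 0.05, with a median of 0.16. Arc, a synaptic activity gene, averaged 390 and 542 CPM, and Fos, a transcription factor gene induced by activity, averaged 49.8 and 64.7 CPM. The summed list held 1358 to 3711 CPM in wild type and 1587 to 3412 CPM in Msh3+/-, so the Msh3+/- range lay inside that of wild type. The median was 0.51 among females, -0.17 among males and -0.12 in the Q140 pair.

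Synapse, receptor and channel genes were close to 0. Median log2 fold changes were 0.017 over 32 glutamate receptor genes, -0.010 over 15 GABA receptor genes, 0.018 over 39 potassium, sodium and calcium channel genes and -0.0073 over 32 genes of synaptic vesicle release, beside 0.0014 for all genes. Stx1a, a syntaxin of the vesicle fusion machinery, averaged 337 ± 19.4 CPM in wild type and 354 ± 9.36 CPM in Msh3+/-, and Gabra5, a GABA-A receptor subunit gene, averaged 35.5 and 32.2 CPM (adjusted p = 0.963 for both). The interval lay within 0.5 log2 units of 0 for all 32 vesicle genes and all 39 channel genes.

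All 13 mitochondrially encoded genes had a log2 fold change below 0, with a median of -0.19, and 1, mt-Nd6, a complex I subunit gene, had an unadjusted p under 0.05 at 117 ± 21.8 and 91.7 ± 21.1 CPM (adjusted p = 0.963). Nuclear-encoded oxidative phosphorylation genes were evenly divided, 20 above and 20 below 0. In the Q140 pair 11 of the 13 mitochondrially encoded genes lay above 0. Cholesterol synthesis genes had a median of 0.046 over 26 genes, with Mvk, mevalonate kinase, at 13.5 ± 1.03 and 15.4 ± 1.23 CPM (adjusted p = 0.963), and cytosolic ribosomal protein genes had a median of -0.0054 over 49.

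Vascular, immune and stress genes were likewise without a call. Endothelial and mural cell genes had a median of -0.043 over 25 genes, interferon response and MHC class I genes 0.024 over 30, heat shock and chaperone genes -0.031 over 25 and reactive astrocyte genes -0.072 over 24. The interferon list median was -0.16 in females and 0.24 in males, with 0 of its genes at an unadjusted p under 0.05 in the comparison of all 16 mice. Ly6c1, a surface protein gene of brain endothelium, averaged 21.1 ± 1.06 and 18.5 ± 2.12 CPM (adjusted p = 0.963). Ciart, a repressor of the circadian clock, averaged 23.5 ± 4.59 and 30.6 ± 10.9 CPM (adjusted p = 0.963), and the median of 21 clock genes was 0.025.

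Choroid plexus genes were carried by 1 library. All 13 tested genes had a log2 fold change above 0, 11 of them at an unadjusted p under 0.05, with a median of 1.33. Ttr, the transthyretin gene, ranged from 2.66 to 14.7 CPM in wild type and from 0.781 to 576 CPM in Msh3+/-, but its Msh3+/- median was 3.65 CPM. The 576 CPM was in M2, and the next Msh3+/- library held 16.9 CPM. Without M2 the list median was -0.043, and the sums of the other 7 Msh3+/- libraries lay within the wild-type range.

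Blood and pituitary genes also differed in median without a call. Of 6 tested blood genes, 5 had a log2 fold change above 0, with 0 at an unadjusted p under 0.05, and the median was 1.38, or 2.04 in females and -0.028 in males. The hemoglobin gene Hbb-bs averaged 0.290 and 1.15 CPM (adjusted p = 0.963). All 6 tested pituitary genes lay below 0, 3 of them at an unadjusted p under 0.05, with a median of -0.58 that ranged from -0.67 to -0.063 when 1 library was left out. Prl, the prolactin gene, averaged 5.43 and 1.69 CPM, with 34.0 CPM in wild-type M2.

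Genes that vary between C57BL/6 substrains differed among libraries of both genotypes. Nnt, the mitochondrial transhydrogenase gene that is partly deleted in C57BL/6J, ranged from 20.6 to 30.7 CPM in wild type and from 29.3 to 39.3 CPM in Msh3+/-, where wild-type F1, F4 and M4 lay at 21.1, 20.6 and 21.3 CPM and no Msh3+/- library lay under 29.3 CPM (log2 fold change 0.30, SE 0.130, adjusted p = 0.963). Gabra2, a GABA-A receptor subunit gene with a known substrain variant, ranged from 43.4 to 112 CPM in wild type and from 70.1 to 118 CPM in Msh3+/-. Nnt and Msh3 are both on chromosome 13. Whether the groups differ in substrain background was not tested.

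**Figure D5:**
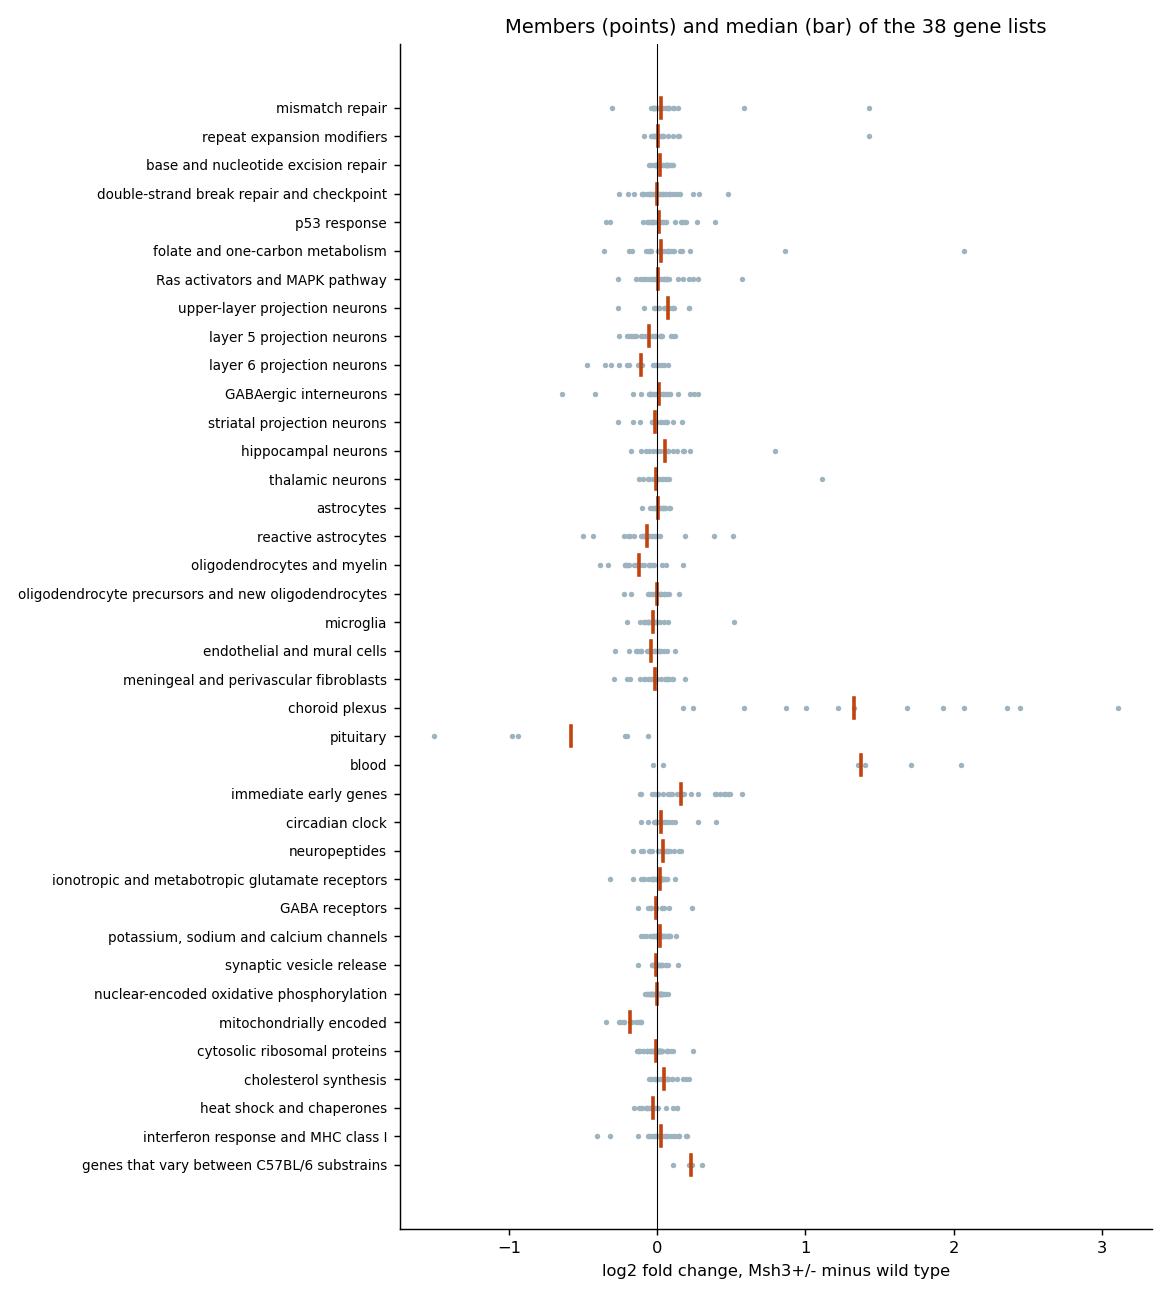
Log2 fold change, Msh3+/- minus wild type, of each tested member (points) and the median (bar) of the 38 gene lists. The medians farthest from 0 are choroid plexus at 1.33, blood at 1.38 and pituitary at -0.58, lists of 6 to 13 tested genes. The genes that vary between C57BL/6 substrains come next at 0.225, with 4 tested genes. The point at 1.43 in the first list is Msh3.

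The precision of the comparison bounds what could have been seen. The 95% interval of the log2 fold change lay within 0.5 of 0 for 14779 genes (75.6%) and within 0.2 of 0 for 9436 genes (48.3%). Among genes of 100 CPM or more, 95.3% lay within 0.2, and among genes under 1 CPM, 0 of 4438 did. The median SE was 0.074 over all genes and 0.304 among genes under 1 CPM.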

How the data were processed

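Cortical RNA from 48 mice was sequenced from libraries made with a stranded kit, per the labels' protocols. The submitters' processing notes name STAR 2.7.5c, SAMtools 1.10 and HTSeq 0.12.3 and the build GRCm38; annotation release and strand setting are not given in the sources used here. The authors deposited whole-number read counts per gene and FPKM values per gene. FPKM was used only to compare levels between genes. Gene positions come from GENCODE M21. Counts were tested with edgeR 4.0.16 (R 4.3.3; TMM scaling, quasi-likelihood F test, robust dispersion) in 1 model of 6 groups and sex over genes kept by filterByExpr (minimum count 10, total 15), with a gene called at an adjusted p under 0.05. DESeq2 1.42.0 and limma 3.58.1 were alternatives. Standard errors are the absolute log2 fold change, refitted without edgeR's small added count, over the root of F. The log2 fold changes given keep that added count, and the 95% intervals are centred on them. The test was also tried on counts simulated from its own fitted means and spread. These held no outlying library or plate difference, so that trial cannot speak to either, and its outcome is not reported here.

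The genes, lists and tests were chosen with earlier results of these data known. Named genes are Msh3 and Htt, the called genes, the uncalled genes of smallest p in each direction (10 higher, 10 lower, from those averaging 20 counts or more), genes within 2 Mb of Msh3 and list members. A few, such as F2r, Tshz3 and Gm10320, were chosen after their values were seen. No 2 of the 16 libraries were identical. Of the gene symbols, 27 had turned into dates and were replaced by the GENCODE M21 symbol of the gene identifier. Some genes are not reported here.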

Additional observations from a re-analysis of the deposited data

Results flagged for a closer look

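In 35 genes given by library and 5 lists of other tissues, the highest or lowest of 8 libraries was called apart where its gap to the next exceeded Dixon's 95% critical value as a share of the group's range. Of 80 groups 9 were apart. The genes and lists were picked with earlier results known, and some flags share a library. The 9 of 80 therefore cannot be set against a chance rate. Several concern other tissues and single libraries. Ttr was 576 CPM in Msh3+/- replicate M2 against 16.9 CPM in the next library, and the choroid plexus list summed to 1168 CPM there against 257 CPM. The pituitary hormone gene Prl was 34.0 CPM in wild-type M2 against 5.60 CPM in the next, and 11.3 CPM in Msh3+/- M1 against 1.07 CPM. Nnt was highest in Msh3+/- M2 at 39.3 CPM, against 33.6 CPM in the next. The chromosome 7 models Gm37827 and Gm38340 were highest in wild-type F3 at 3.06 and 11.3 CPM, against 1.76 and 5.93 CPM. The lowest libraries were Msh3+/- M4 for F2r, at 2.76 CPM against 4.79 CPM, and wild-type M4 for Gpr135, at 5.37 CPM against 6.99 CPM.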

How the results depend on the processing

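Calls between Msh3+/- and wild type numbered 6. They numbered 2 with only the compared groups in the fit, 10 by DESeq2, 1 in females only, 2 in males only and 3 without wild-type F3 and F4. Leaving out 1 library gave 5 to 7. The 10 by DESeq2 were 4 higher and 6 lower, the 6 and Fam169a, Insm1, Sostdc1 and Ttr. Sostdc1 and Ttr are on the choroid plexus list. Their edgeR log2 fold changes were 2.36 and 3.11 with all libraries, and 0.40 and -0.42 without Msh3+/- M2. The cause of these differences was not tested. Without wild-type F3 and F4 the log2 fold changes of the lost calls were -1.32 for Gm38340, -1.52 for E230020A03Rik and -0.25 for Cmya5, whereas without Msh3+/- M2 and wild-type M2, 5 calls were made. In the Q140 pair, 6 calls became 4 with only the compared groups in the fit, 2 in females and 3 in males. They numbered 4 to 7 when 1 library was left out. The averaged comparison, with 10, gave 4 in females and 6 in males, and 9 to 13 when 1 library was left out. The interaction with sex had 0 calls in all other fits and when any 1 library was left out, but 5, all lower, with the plate column as a term: Aldh7a1, Cst3, Dnah6, Ndrg2 and Utp14b. The interaction with Q140 had 0 in every fit. Msh3 was called in 15 of 15 alternatives, Rasgrf2 in 13, Gm37827 in 12 of 14, E230020A03Rik in 11, Gm38340 in 8 and Cmya5 in 5. With the plate column as a term, adjusted p was 0.0061 for Rasgrf2 and 0.395 for Cmya5. The log2 fold change of Ttr reversed to -0.53 in females, -0.42 without Msh3+/- M2 and wild-type M2, and -0.42 without Msh3+/- M2 alone, in a range of -0.42 to 3.35 over the 16 fits that left out 1 library. Replicate numbers were not taken to pair mice, since the labels do not say what they mark: same-numbered libraries correlated at -0.015 to 0.18 in their deviations, over 0.1 in 4 of 8 pairs, and 5 of 8 correlated best with their own number. Mouse-name prefixes were shared in part: 3 occurred in both genotypes, among 4 wild-type and 3 Msh3+/- libraries, and the F1 and F2 pairs each share 1 (correlations 0.177 and 0.170). With sex and number as a replicate block, calls were 6, 6, 11 and 0 in the 4 contrasts over all groups. In the 16 libraries alone the block gave 7 calls, beside 2 without it (Msh3 and Rasgrf2). The 7 were these and E230020A03Rik, Gm37827, Pappa2, Sh2d3c and Vgll4. Cmya5 and Gm38340 were uncalled there with the block (adjusted p = 0.189 and 0.404) and without it (adjusted p = 0.292 and 0.675). With the name prefix as a random block in limma over all groups, 4 calls were made. Of the 6 calls, Cmya5 and Gm38340 were lost (adjusted p = 0.0503 and 0.0639). Plain limma-voom without a block also made 4 calls and lost the same pair (adjusted p = 0.0555 and 0.0827). Of 1178 list medians under alternatives, 1154 moved by less than 1 SD between single libraries, a loose bound for a group median. For immediate early genes that SD was 0.456, so medians of 0.51 in females and -0.17 in males stayed within it. Of the 24 that moved by more, 11 were of the blood list and 6 of the choroid plexus list. Precision was lowest for genes under 1 CPM.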
